A study of Mus musculus with 6 samples.

Results

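Macrophages polarized with lipopolysaccharide (LPS) and interferon-gamma (M1) were set directly against macrophages polarized with the interleukins IL-4 and IL-13 (M2), within each of 2 mouse genotypes. All samples were bone marrow-derived macrophages of C57BL/6 mice, grown over 7 days in medium with 10% L929 supernatant, which supplies macrophage colony-stimulating factor. Polarization lasted 24 hours. The M1 stimulus was LPS at 100 ng/ml and interferon-gamma at 20 ng/ml, and the M2 stimulus was IL-4 and IL-13, each at 10 ng/ml. Unstimulated cells (M0) of both genotypes complete the series. The wild-type cells (WT) were FoxO1 Fl/Fl, that is, they carried the floxed gene of the transcription factor FoxO1 without Cre, and the knockout cells (KO) were LysMcre FoxO1 Fl/Fl, in which the lysozyme M gene drives Cre in myeloid cells. The M1 and M2 samples were chosen by their labels and are 4 of the 6 arrays of the series, with 1 array for each genotype and state. Nothing in the labels says that the samples came from separate animals, so the p-values below measure only the spread between these arrays, which may be technical.

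M1 and M2 are the poles of macrophage activation. LPS acts through Toll-like receptor 4 to NF-kB and to type I interferon, and interferon-gamma acts through its own receptor and the JAK kinases. IL-4 and IL-13 share a receptor chain and act through STAT6. M1 cells are known for killing microbes and secreting inflammatory cytokines, and M2 cells for tissue repair and for defence against helminths.

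RNA was hybridised to 1-colour Agilent whole mouse genome arrays. A level below is a log2 processed signal relative to the 75th percentile of its array, and a difference is the M1 level minus the M2 level, so a difference of 1 is 2-fold. Genes were tested if their brightest probe was detected (well above background, by the scanner software) on 2 or more of the 4 M1 and M2 arrays, which held for 18555 of 27361 gene names. The 75th percentile lay between 498.1 and 591.9 signal units, and 62.8% to 67.7% of probes were well above background on an array. The number of arrays limits the precision. WT M0 and WT M1 lay on slide 1 and the other 4 arrays on slide 2, so the KO pair was measured within a slide and the WT pair across slides. For the WT pair alone, slide and state cannot be told apart.

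Before the comparison the labels were checked. Foxo1, the targeted gene, had levels of 1.59 (M0), 1.07 (M1) and 1.59 (M2) in WT and of -1.34, -1.71 and -1.07 in KO, so it was lower on every KO array. Its M1 minus M2 difference was -0.52 in WT and -0.64 in KO (adjusted p of 0.0708 in limma). All 13 macrophage markers, such as the colony-stimulating factor receptor gene Csf1r and Cd68, were well above background on all 6 arrays. Of 12 liver markers, 4 were well above background on WT M1, 7 on each M2 array and 10 on KO M1. The albumin gene Alb read -2.26 on KO M1, and the other M1 and M2 arrays lay between -7.61 and -5.88. The part of liver transcripts in the results below was not tested. Of 8 tested granulocyte markers, 0 passed as higher in M1 and 4 passed as higher in M2, among them S100a9 with a difference of -4.01 in WT and -3.55 in KO and Cxcr2, which was well above background in M2 only. The summed level of all 10 listed granulocyte markers, as log2, was 1.96 and 2.01 in M1 and 4.76 and 2.49 in M2 (WT, then KO). In M0 it was 6.42 and 3.84.

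Before the values of the groups, the sequences that the poles are read from are shown. The arginine-using enzymes that stand for the poles are the inducible nitric oxide synthase Nos2 (M1) and arginase Arg1 (M2), and their 60-base array probes are printed because every level of these genes below is the signal of these bases. The Nos2 probe lies at chr11:78773160-78773219 on the plus strand and the Arg1 probe at chr10:24636194-24636253 on the minus strand, on mm9 (NCBI build 37) per the file annotation.
Nos2: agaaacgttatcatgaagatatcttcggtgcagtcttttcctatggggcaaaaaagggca
Arg1: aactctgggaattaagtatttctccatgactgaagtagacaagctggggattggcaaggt

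Promoters were read from RefSeq windows of GRCm38.p6 that run from 250 bases before to 50 bases after the annotated gene start. Of the 15139 symbols tested 12045 had an entry, and Nos2, Arg1 and Cxcl11 were not among them. The 250 upstream bases are printed for 3 genes higher in M1 and 3 genes higher in M2 that hold a motif of the pathways named above, chosen after the motifs were searched. They run from 5′ to 3′ on the strand of the gene, with the motif matches in capitals. Cxcl10 (chr5:92348890-92349139, minus strand) holds an interferon response element (GAAA, any 2 bases, GAAA), whose first base lies 213 bases upstream, and an NF-kB element (GGGA, any 2 bases, TTCC), 159 bases upstream. Ifit1 (chr19:34640639-34640888, plus strand) holds 2 interferon response elements, 104 and 85 bases upstream, both on the other strand. Irf1 (chr11:53769764-53770013, plus strand) holds a STAT element with a 3-base spacer (TTC, any 3 bases, GAA), 90 bases upstream.
Cxcl10: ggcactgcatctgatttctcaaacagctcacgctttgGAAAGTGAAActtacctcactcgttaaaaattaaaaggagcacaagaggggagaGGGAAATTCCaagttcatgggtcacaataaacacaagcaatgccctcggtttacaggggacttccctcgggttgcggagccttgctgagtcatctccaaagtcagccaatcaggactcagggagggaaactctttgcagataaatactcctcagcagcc
Ifit1: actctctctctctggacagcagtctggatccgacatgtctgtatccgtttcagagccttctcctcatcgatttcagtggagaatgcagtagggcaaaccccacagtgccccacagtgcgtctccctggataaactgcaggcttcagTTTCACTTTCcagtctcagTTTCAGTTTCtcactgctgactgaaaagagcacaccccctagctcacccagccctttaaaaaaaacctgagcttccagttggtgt
Irf1: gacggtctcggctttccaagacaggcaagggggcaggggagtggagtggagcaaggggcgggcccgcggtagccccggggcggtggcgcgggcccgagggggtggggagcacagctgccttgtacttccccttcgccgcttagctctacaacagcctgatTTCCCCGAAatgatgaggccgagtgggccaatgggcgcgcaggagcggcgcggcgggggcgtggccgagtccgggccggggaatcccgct
Among the genes higher in M2, Retnla (chr16:48842359-48842608) holds the 4-base spacer form of the STAT element (TTC, any 4 bases, GAA), 145 bases upstream. This is the spacing that STAT6 is known to favour. Ccl17 (chr8:94810203-94810452) holds the 4-base form 154 bases and the 3-base form 99 bases upstream, and Pdcd1lg2 (chr19:29410669-29410918) holds the 4-base form 82 bases upstream. All 3 lie on the plus strand.
Retnla: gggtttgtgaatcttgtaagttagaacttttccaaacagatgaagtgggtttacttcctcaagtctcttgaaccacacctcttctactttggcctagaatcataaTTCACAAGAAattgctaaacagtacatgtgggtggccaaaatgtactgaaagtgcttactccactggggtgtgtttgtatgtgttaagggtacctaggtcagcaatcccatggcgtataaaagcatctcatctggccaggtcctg
Ccl17: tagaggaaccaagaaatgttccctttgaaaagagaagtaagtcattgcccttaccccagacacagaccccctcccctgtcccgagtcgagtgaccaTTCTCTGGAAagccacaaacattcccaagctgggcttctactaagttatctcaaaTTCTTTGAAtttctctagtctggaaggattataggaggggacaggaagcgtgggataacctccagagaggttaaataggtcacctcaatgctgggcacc
Pdcd1lg2: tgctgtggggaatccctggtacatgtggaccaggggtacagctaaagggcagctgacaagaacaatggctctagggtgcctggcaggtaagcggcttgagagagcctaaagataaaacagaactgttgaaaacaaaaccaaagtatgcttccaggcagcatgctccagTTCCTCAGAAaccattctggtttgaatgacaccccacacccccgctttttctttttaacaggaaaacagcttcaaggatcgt

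Counted over both strands of the 300-base windows, the interferon response element was held by 10.8% of 1093 genes that passed the test as higher in M1 and were at least 2-fold higher in both genotypes. It was held by 3.01% of 1096 such genes on the M2 side, by 3.89% of all genes tested and by 3.44% of all 32851 windows. Among the 100 genes with the highest mean difference, 20 of the 78 with an entry held it (25.6%), against 2 of 70 among the 100 with the lowest (2.86%). The NF-kB element was held by 2.74% on the M1 side, 1.55% on the M2 side, 1.73% of all genes tested and 1.47% of all windows, and by 8 of the 78 and 0 of the 70. The 3-base form was held by 10.5% on the M1 side, 7.03% on the M2 side, 8.54% of all genes tested and 8.30% of all windows, and by 12 of the 78 highest and 8 of the 70 lowest genes. The 4-base form was held by 6.77%, 7.48%, 6.77% and 6.95%, and by 10 of the 78 highest and 12 of the 70 lowest genes. A window may hold several motifs, and overlapping matches count towards each. These shares are descriptions of letters in a window, with no test.

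The states differed over a large share of the genes tested. With limma, fitted with terms for state and genotype on all 6 arrays, 4951 genes passed an adjusted p of 0.05, which is 26.7% of the 18555 tested. Of these 2353 (12.7%) were higher in M1 and 2598 (14.0%) higher in M2, and 7703 genes had an unadjusted p under 0.05. All 4951 had the same sign in both genotypes. The fit counts a difference between the genotypes as residual, so a gene with opposite signs could not pass. The shared sign is therefore no separate evidence of agreement. Of the 4951 genes, 1133 differed by less than 2-fold. Centring each array on its median, in place of the 75th percentile, moved the median difference of all genes from -0.15 to 0.16 and the share of calls higher in M1 from 47.5% to 65.2%. Without the KO M1 array 0 genes passed in limma, at a lowest adjusted p of 0.0513, although 5520 had an unadjusted p under 0.05. Without the WT M1 array 290 and 240 genes passed.

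Both genotypes were then compared by size alone, with 1 array against 1 array and no test. In both, 1623 genes (8.75%) were at least 2-fold higher in M1 and 1845 (9.94%) at least 2-fold higher in M2, and 176 (0.949%) were at least 2-fold apart in opposite directions. At 16-fold, 192 genes in both genotypes were on the M1 side and 136 on the M2 side. Across genes, which are not independent replicates, the WT and KO differences had a Pearson r of 0.798 and a Spearman rho of 0.625, and 0.819 and 0.658 over the 16232 genes well above background on all 4 arrays. The sides were less even in WT, with 2091 genes at least 2-fold higher in M1 and 4649 in M2, than in KO, with 2465 and 2468. Of the WT genes at least 2-fold higher in M2, 39.7% were so in KO, and of the KO genes 74.8% were so in WT. On the M1 side the shares were 77.6% and 65.8%.

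**Figure D1:**
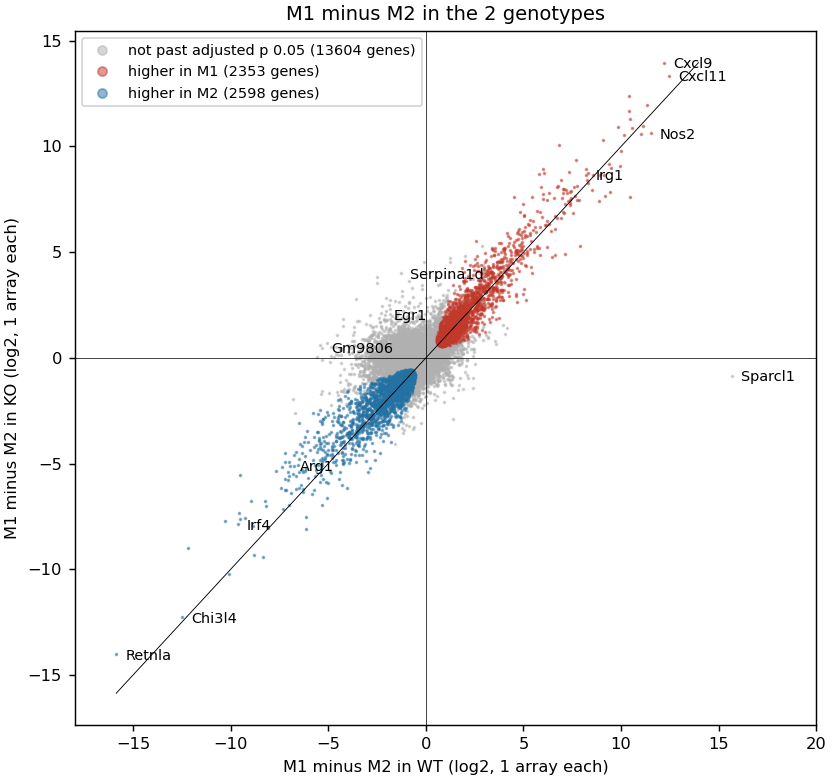
Each point is 1 of 18555 genes, with its M1 minus M2 difference in WT on the horizontal axis and in KO on the vertical axis (both log2, 1 array against 1 array); red and blue points passed an adjusted p of 0.05 in limma as higher in M1 (2353) or in M2 (2598), and the line marks equal differences. The coloured points lie along the line from Retnla at the lower left to Cxcl9 at the upper right, and the grey cloud is wider along the WT axis.

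The position of the unstimulated cells split the calls on each side. Of 1555 genes that passed as higher in M1 and were at least 2-fold higher in both genotypes, 1038 were at least 2-fold above M0 in M1 in both genotypes while M2 was not 2-fold below M0. Both held for 113, neither for 297, and the rest were 2-fold below M0 in M2 alone. On the M2 side the order was turned. Of 1716 such genes 193 were only above M0 in M2, 1110 only below M0 in M1, 100 both and 313 neither. Both sides share the same M0 arrays. WT M0 carried liver transcripts (Alb at 3.58) and had the highest summed level of granulocyte markers (6.42). In WT, M0 and M1 lay on slide 1 and M2 on slide 2, so M2 against M0 crossed slides and M1 against M0 did not. Of all genes tested 18.5% were lower and 2.83% higher on both slide 1 arrays than on all 4 slide 2 arrays. The part of the slide in this split was not tested.

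Where a gene was detected on each M1 and M2 array, chemokine and chemotactic receptor genes led the M1 side. The T cell-attracting chemokine gene Cxcl9 read 7.81 and 8.19 in M1 and -4.40 and -5.78 in M2 (WT, then KO). Its mean difference was 13.09 ± 0.67 (SE of the limma fit on all 6 arrays, adjusted p of 0.00484 in limma). The formyl peptide receptor genes Fpr1 and Fpr2, which sense bacterial peptides, followed with 11.03 ± 0.23 and 10.90 ± 0.35. For all 3 genes the M1 and M2 levels did not come near each other in either genotype. Cxcl10, whose promoter is printed above, read 7.08 and 7.64 in M1 and -2.74 and -3.26 in M2, with M0 between them at 2.32 and 1.66. Its mean difference was 10.36 ± 0.36.

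The rest of the 15 highest were the membrane protein genes Ms4a4d (10.36), Ms4a4c (9.70) and Ms4a4b (8.61), the activation marker gene Cd69 (9.28), the interferon-induced genes Ifi205 (9.25), Isg20 (8.90), Oasl1 (8.52) and Ifi44 (8.43), the GTPase gene Gbp6 (8.55), the inducible cyclooxygenase gene Ptgs2 (8.58) and Irg1 (8.43). Irg1, now Acod1, encodes the enzyme that makes itaconate. The Ms4a4 and Gbp genes have close relatives, so their probes may read more than 1 gene. Further probes gave smaller mean differences for Ms4a4d (4.0), Ms4a4b (0.87 and 3.68 at 2 of them) and Ifi205 (2.47).

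Genes of alternative activation led the M2 side. The chitinase-like genes Chi3l4 (now Chil4) and Chi3l3 (now Chil3) had mean differences of -12.38 ± 0.76 and -10.16 ± 0.70, and the near-identical pair may share signal. Chi3l3 read 8.48 and 8.23 in M2, 3.48 and 0.79 in M0 and -1.60 and -2.02 in M1, so M0 lay between the poles in both genotypes. Ptgs1, the constitutive cyclooxygenase gene, read 5.07 and 3.93 in M2 and -3.72 and -5.42 in M1 (-9.07 ± 0.20, adjusted p of 0.00363 in limma). The eosinophil-associated ribonuclease genes Ear11 (-9.00), Ear1 (-8.58), Ear7 (-8.44) and Ear10 (-8.40), a family of close copies, had values within 1 log2 unit of each other. By accession the probe named Ear7 maps to the current gene Ear6, as does the probe named Ear6 below. The transmembrane protein gene Tmem26 (-8.88), the kinase gene Matk (-8.07), the transcription factor gene Egr2 (-7.86), the lectin genes Mgl2 (-7.25) and Mrc1 (-6.75), the heme-binding protein gene Hebp2 (-6.99), the sorting receptor gene Sort1 (-6.83) and the ATP and ADP receptor gene P2ry1 (-6.66) completed the 15 lowest. Further probes gave -4.60 to -3.08 for Sort1 and -2.59 for Matk.

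Some genes were well above background on both arrays of 1 state and on neither of the other. By the probe used this held for 220 genes in M1 and 565 in M2. Where no other probe of the gene was detected in the dim state either, a bound is given, the mean of the bright state against the detection limit of the dim arrays. Bounds were thus set for 217 genes in M1, of which 156 were at least 2-fold and 23 at least 16-fold above the limit, and for 552 genes in M2, of which 231 and 20 were. In M1 the interferon-induced chemokine gene Cxcl11 was at least 2129-fold higher and Nos2 at least 661-fold higher, both at an adjusted p of 0.00363 in limma. BC023105 was at least 470-fold, the tripartite motif gene Trim30b at least 398-fold, the membrane metalloproteinase gene Mmp25 at least 169-fold, the lectin-like receptor gene Klra2 at least 102-fold and the histamine-making enzyme gene Hdc at least 100-fold higher. Il12b, which encodes the p40 chain of interleukins that steer T cells, was at least 82.8-fold higher, with levels of -1.23 in WT M1 and 1.66 in KO M1. The other 4 of the 12 largest M1 bounds were transcripts without a current symbol, at 62.6-fold to 192-fold.

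In M2 the largest bound was that of Irf4, an interferon regulatory factor induced by IL-4, which was at least 116-fold higher (adjusted p of 0.00506 in limma). It read 1.22 and 0.35 in M2, -3.96 and -4.34 in M0 and -8.42 and -7.52 in M1. Bex1 followed at 96.9-fold, Gm5086 at 68.2-fold, the Nogo receptor-related gene Rtn4rl1 at 52.3-fold, Gm8221 at 47.0-fold and Ear6 at 36.3-fold, each as a lower limit. The peroxisomal transporter gene Abcd2 (at least 26.1-fold), the lipase gene Lipn (at least 24.4-fold), the sarcosine dehydrogenase gene Sardh (at least 23.9-fold) and the adiponectin gene Adipoq (at least 20.2-fold) were in the same group. The other 2 were transcripts without a current symbol, at least 39.9-fold and 25.0-fold higher.

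Among enzymes that use arginine, Nos2 read 3.48 and 2.94 in M1 and at most -7.69 in M2 and M0. Arg1 read 6.32 and 5.73 in M2, -0.62 and 0.62 in M1 and -3.72 and -5.93 in M0, a mean difference of -6.03 ± 0.89 (adjusted p of 0.0191 in limma). Arg1 was thus lower in M1 than in M2 but its M1 levels lay above its M0 levels in both genotypes. Of 14 tested genes of arginine, nitric oxide and itaconate metabolism 4 were higher in M1 and 2 in M2, against 12.7% and 14.0% of all genes, and 8 did not pass. The M2 share is near that of all genes. Gch1, which makes the cofactor of nitric oxide synthase, was higher in M1 (2.83 in WT and 2.33 in KO), and the spermidine synthase gene Srm was higher in M2 (-1.21 and -1.50). Ass1, which recycles citrulline to arginine, differed by 3.97 in WT and 1.55 in KO (adjusted p of 0.0514). Arg2, the mitochondrial arginase, differed by 1.26 in WT and -1.27 in KO.

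Of 28 tested M2 effector and marker genes 22 were higher in M2 and 4 higher in M1, with a list median of -5.65 against -0.15 for all genes (-5.49 with the 1 gene measured only in M2 at its bound). Several members were put on the list because they are known from M2 cells, so the direction is not independent evidence. Retnla, which encodes the secreted protein Fizz1 and carries the printed STAT element, read 8.50 and 8.17 in M2, -4.81 and -1.54 in M0 and -7.37 and -5.87 in M1. Of the M1 arrays only KO had a signal well above background, and there the difference was -14.03. The mannose receptor gene Mrc1 read 5.17 and 5.08 in M2 and -2.06 and -1.20 in M1. The fibronectin gene Fn1 (-6.31 and -6.34), the integrin gene Itgax (-5.92 and -4.35), the transferrin receptor gene Tfrc (-4.76 and -4.38) and the growth factor gene Igf1 (-2.58 and -2.61) were also higher in M2. Cdh1, the E-cadherin gene, was at least 10.6-fold higher in M2.

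The 4 members that passed in the other direction, a share near the 12.7% of all genes, were Il1rn, Vegfa, Il4ra and Tgm2. Il1rn, the gene of the interleukin-1 receptor antagonist, read 7.30 and 7.92 in M1 and 0.20 and 1.06 in M2 (6.98 ± 0.23, adjusted p of 0.00430 in limma). Il4ra, which encodes the receptor chain that binds IL-4, differed by 1.90 and 2.01, the transglutaminase gene Tgm2 by 1.64 and 1.70, and Vegfa, an angiogenic factor gene, by 1.93 and 2.14. Tgm2 read 4.74 and 5.06 in M0, 5.46 and 5.62 in M2 and 7.10 and 7.32 in M1, so its M2 levels lay above M0 and its M1 levels above both.

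Inflammatory cytokine genes were higher in M1 in 15 of 17 tested, with a list median of 4.68 (2.72 with normexp background correction), and 0 were higher in M2. Il1b read 4.29 and 4.89 in M1 and -3.28 and -3.21 in M2 (7.83 ± 0.22), with M0 at -0.23 and -0.27. Tnf differed by 5.20 and 5.06. Il6 differed by 6.05 in WT and was not well above background on KO M2, and Ifnb1, the interferon-beta gene, was at least 35.6-fold higher in M1. The anti-inflammatory Il10 was also higher in M1, with 3.89 and 4.51. Il27 (-0.68 and 0.11) and Csf1 (0.63 and 1.42), the gene of the macrophage growth factor, did not pass.

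Chemokine genes split by member. Of 11 tested CC chemokines 7 were higher in M1 and 4 in M2. The monocyte-attracting Ccl2 (4.77 and 5.85), Ccl7 (4.31 and 5.11) and Ccl12 (7.36 and 7.85), and Ccl3, Ccl4, Ccl5 and Ccl8 at 3.32 to 5.66, were higher in M1. Ccl17, which attracts Th2 cells, read 1.01 and 0.92 in M2 and between -6.43 and -5.24 in M1 and M0. It was not well above background on WT M1, and the KO difference was -6.16. The eosinophil attractant Ccl24 (-5.12 and -3.68), Ccl6 (-2.47 and -2.55) and Ccl9 (-1.21 and -0.97) were also higher in M2, though Ccl9 did not pass after median centring. Of 11 tested CXC chemokines 7 were higher in M1, and Cxcl12, a homeostatic chemokine, was higher in M2 (-2.30 and -2.39). The CXC list median was 2.23, against 1.67 with the 3 genes measured only in M1 at their bounds. With normexp correction it was 0.47, and 4 genes were higher in M1. Among 10 chemokine receptors 2 were higher in M1 and 4 in M2, against 12.7% and 14.0% of all genes. The 2 were Ccrl2 (5.67 and 5.32) and Ccr7 (at least 9.68-fold). The 4 were Cxcr2 (at least 3.63-fold), Cxcr4 (-2.91 and -3.06), Cxcr3 (-2.15 and -2.63) and Ccr3 (-1.38 and -0.91).

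**Figure D2:**
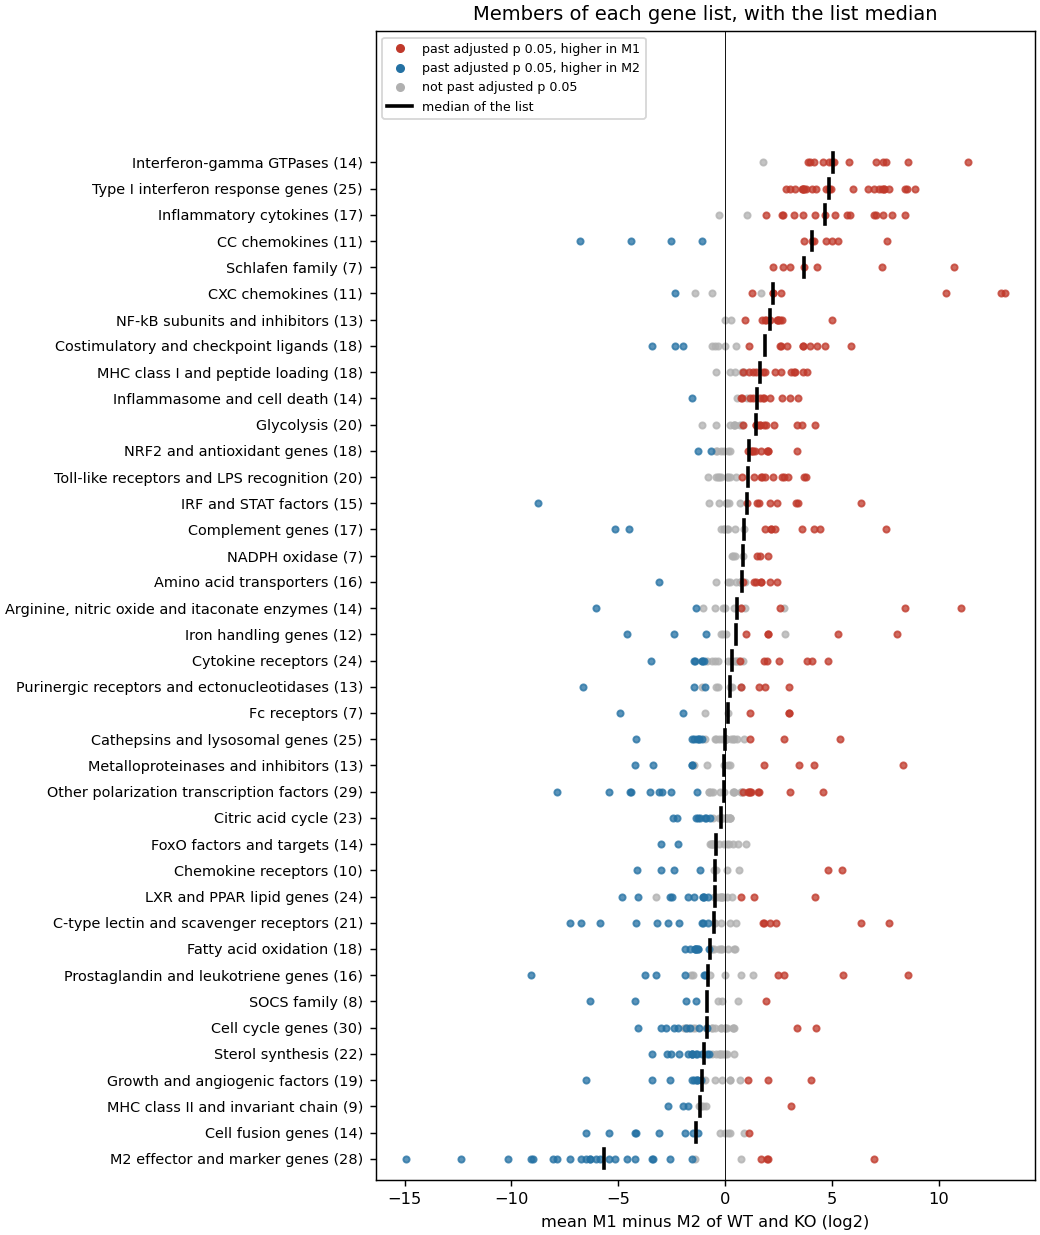
Each row is 1 gene list with its number of tested members in brackets, each point is 1 member at its mean M1 minus M2 difference over both genotypes (log2), coloured by limma's call, and the black bar is the list median. Interferon lists lie wholly to the right, from 1.80 upwards, M2 effector genes lie mostly to the left with a median of -5.65, and lists such as CC chemokines hold members on both sides.

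Interferon response genes were the most uniform groups. All 25 type I interferon response genes were higher in M1, by 2.86 to 8.90, with a list median of 4.87, and all 25 also passed under the 4 other scalings, against 16 without the WT M1 array. Ifit1 read 4.70 and 5.22 in M1, 1.54 and 1.02 in M0 and -2.33 and -1.67 in M2, so M2 lay below M0 in both genotypes. Isg15, a ubiquitin-like modifier gene, differed by 7.27 and 7.42. Of 14 tested interferon-gamma-induced GTPase genes, which act against intracellular microbes, 13 were higher in M1, with Igtp at 4.64 and 5.57. Gbp4 differed by 10.42 in WT, and on KO M2 it was not well above background. Gvin1 (0.96 and 2.64) did not pass, at an adjusted p of 0.0655 in limma. All 7 Schlafen genes were higher in M1, from Slfn2 (2.10 and 2.36) to Slfn4 (10.56 in WT, and not well above background on KO M2), and their close sequences may share signal.

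Transcription factor genes differed member by member. Of 15 tested IRF and STAT genes 8 were higher in M1 and 1, Irf4, in M2. Irf7 (5.85 and 6.88), Stat2 (3.06 and 3.59) and Irf1 (1.99 and 2.92) were higher in M1. Stat6, the factor activated by IL-4, had differences of 0.35 and 0.07, which did not pass (adjusted p of 0.408 in limma). Of 29 other factors of polarization 9 were higher in each direction, against 12.7% (M1) and 14.0% (M2) of all genes. On the M2 side were Egr2 (-8.96 and -6.75), Myc (-6.21 and -4.65), Batf3 (-4.73 and -4.17), the hypoxia factor Epas1 (-4.32 and -4.53), Bhlhe40 (-3.82 and -3.17) and Cebpa (-2.48 and -2.54). On the M1 side were Batf2 (3.98 and 5.19), Batf (2.72 and 3.31), the hypoxia factor Hif1a (1.49 and 0.99), Cebpb (1.15 and 1.22) and Maf (0.77 and 1.50). Further Epas1 probes gave mean differences of -3.11 and -0.98.

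NF-kB genes were higher in M1 in 11 of 13 and in M2 in 0. They included the inhibitors Nfkbia (2.89 and 2.43), Nfkbie (2.61 and 2.57) and Tnfaip3 (2.51 and 2.36), the nuclear regulator Nfkbiz (5.02 and 4.97) and the subunits Relb (1.85 and 1.62), Nfkb2 (1.87 and 1.86) and Rela (0.98 and 0.89). Nfkb1 was not among them, with -0.25 and 0.24. Of 8 suppressor of cytokine signalling (SOCS) genes 4 were higher in M2, led by the STAT5 targets Socs2 (-7.02 and -5.60) and Cish (-4.87 and -3.53). The counts depend on the probe used. A further probe gave a mean of 7.26 for Socs3, against -0.13 for the probe used. Further Socs4 probes gave 1.24 and 0.79, against -0.33, while a further Socs2 probe gave -4.88. Socs1 was higher in M1 (1.11 and 2.70, adjusted p of 0.0472 in limma), but this call was lost after quantile normalization and in the authors' table. Its levels were 5.29 and 6.00 in M1, 4.18 and 3.30 in M2 and -0.75 and -0.61 in M0, so both polarized states lay above M0.

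**Figure D3:**
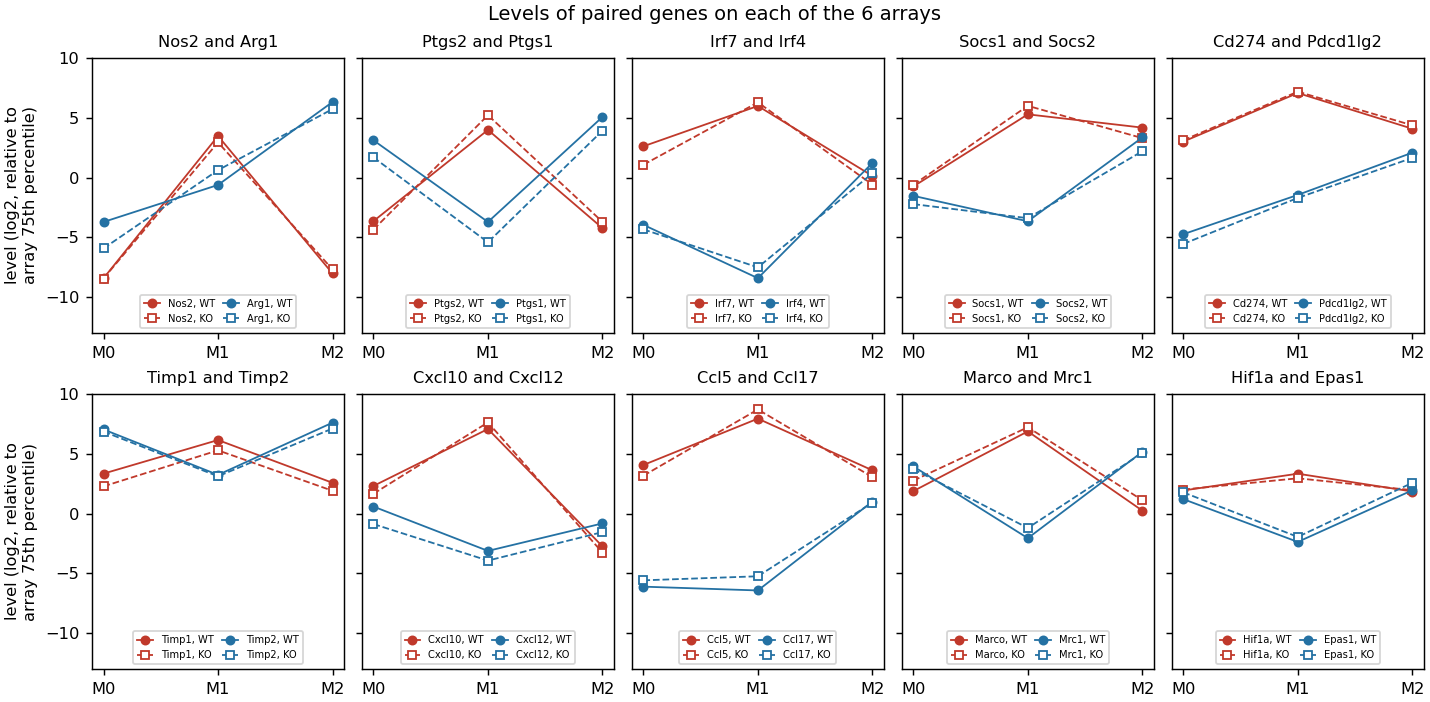
Each panel shows a gene higher in M1 (red) and a functional counterpart higher in M2 (blue) on all 6 arrays, as the log2 level relative to the array 75th percentile; filled circles are WT, open squares KO, and lines join the arrays of a genotype. In every panel the red gene was higher in M1 than in M2 and the blue gene the reverse in both genotypes, while M0 lay below, between or above them depending on the gene. The pairs were chosen after their values were seen.

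Antigen presentation genes differed by class. Of 18 tested MHC class I and peptide-loading genes 13 were higher in M1 and 0 in M2 (list median 1.62). The peptide transporter genes Tap1 (3.49 and 3.82) and Tap2 (3.24 and 3.30) and the class I transactivator gene Nlrc5 (2.83 and 3.68) were among the 13. H2-K1 (0.22 and 0.73) and B2m (-0.11 and 0.62) did not pass. Further probes gave larger mean differences, 0.77 to 1.72 for H2-K1 and 0.57 and 1.32 for B2m. Of 9 tested MHC class II genes 3 were higher in M2 and 1 in M1, the latter near the 12.7% of all genes. Ciita, the class II transactivator gene, read 2.61 and 1.28 in M2, 0.95 and -1.44 in M0 and -0.68 and -0.81 in M1 (-2.69 ± 0.59, adjusted p of 0.0438). In WT the M1 level lay below M0, and in KO it lay above. H2-Eb1 (-2.40 and -1.53) and H2-Aa (-2.07 and -1.41) were higher in M2, and H2-Ab1 (-1.22 and -0.88) and the invariant chain gene Cd74 (-1.12 and -0.62) did not pass. H2-Oa, which modulates peptide loading, was the exception in M1 (2.86 and 3.35). The M2 count of this list depended on the scaling. It was 6 after quantile normalization, 7 with normexp correction, 6 in the authors' table and 3 after median centring. With the slide as a block 0 class II genes passed as higher in M2.

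Of 18 costimulatory and checkpoint genes 10 were higher in M1 and 3 in M2, the latter near the 14.0% of all genes. Cd86 (5.58 and 6.20) and Cd40 (3.40 and 5.19), which activate T cells, were higher in M1, and Cd80 (0.25 and -0.89) did not pass. The ligands of the PD-1 receptor lay on opposite sides. Cd274, which encodes PD-L1, read 7.08 and 7.19 in M1 and 4.09 and 4.37 in M2, and Pdcd1lg2, which encodes PD-L2, read -1.45 and -1.71 in M1 and 2.08 and 1.64 in M2. M0 was the lowest state for both, at 3.01 and 3.12 for Cd274 and -4.74 and -5.56 for Pdcd1lg2.

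Receptor genes were divided as well. Among 21 C-type lectin and scavenger receptors 6 were higher in M1, led by Clec4e (7.84 and 7.48), which senses mycobacterial glycolipid, and the scavenger receptor gene Marco (6.63 and 6.11). Another 10 were higher in M2, led by Mgl2, Mrc1 and Clec10a (-6.03 and -5.67). Clec7a, which encodes the glucan receptor Dectin-1, differed by -2.93 and -2.44, and Cd163 was at least 3.99-fold higher in M2. The 10 include Macrod1 (-2.49 and -1.77), which was on the list although it encodes neither a lectin nor a scavenger receptor. Of 20 genes of Toll-like receptors and LPS sensing 11 were higher in M1 and 0 in M2, with Nod2 (3.87 and 3.75), Cd14 (2.66 and 2.83) and Tlr3 (2.54 and 2.78). Tlr4, the LPS receptor itself, differed by -0.17 and -0.35 and did not pass. Of 24 cytokine receptors 7 were higher in M1 and 6 in M2, against 12.7% and 14.0% of all genes. Among the 7 were Il15ra (4.66 and 4.96) and Il13ra1 (3.70 and 3.94), a receptor chain for IL-13. Among the 6 were Il27ra (-4.43 and -2.49), Csf1r (-1.47 and -1.33) and Ifngr1 (-1.01 and -1.18), the ligand-binding interferon-gamma receptor chain. The M2 calls of this list fell to 3 after median centring and to 2 with the slide as a block.

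Of 20 glycolysis and lactate transport genes 12 were higher in M1 and 0 in M2. Pfkfb3, which makes the activator of phosphofructokinase, read 6.45 and 6.15 in M1 and 2.15 and 2.01 in M2 (4.22 ± 0.19, adjusted p of 0.00468 in limma). The lactate exporter gene Slc16a3 (3.54 and 3.70), the phosphofructokinase gene Pfkl (3.54 and 3.20) and the glucose transporter gene Slc2a1 (1.29 and 2.02) were higher in M1. Ldha (0.20 and 0.68), Hk2 (0.64 and 0.73) and Aldoa (0.25 and 0.59) did not pass. After quantile normalization 11 genes of the list were higher in M1 and 1 in M2.

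Of 23 citric acid cycle genes 8 were higher in M2 and 0 in M1. They were the isocitrate dehydrogenase genes Idh1 (-2.38 and -2.48), Idh2 (-1.78 and -2.73), Idh3a (-1.26 and -1.29) and Idh3g (-1.02 and -0.87), with Aco1, Fh1, Suclg2 and Mdh1 at -1.53 to -0.65. Succinate dehydrogenase subunit genes Sdhb (0.25 and 0.20) and Sdhd (0.31 and 0.18) had small differences that did not pass. The list median was -0.17, near the -0.15 of all genes, and it turned to 0.14 after median centring, where 3 genes passed. With the slide as a block 1 passed.

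Of 18 fatty acid oxidation genes 9 were higher in M2 and 0 in M1, with a list median of -0.70. Etfb (-1.93 and -1.80), an electron carrier subunit gene, Hadh (-1.63 and -1.65) and Acadm (-1.44 and -1.35) led, while the carnitine transferase genes Cpt1a (0.32 and 0.53) and Cpt2 (-0.25 and -0.10) did not pass. Of 22 sterol synthesis genes 13 were higher in M2 and 0 in M1 (list median -0.98), among them Idi1 (-2.53 and -2.88), which isomerizes the isoprenoid unit, Dhcr7 (-2.38 and -2.67) and Sc5d (-0.79 and -0.68). Further probes of some sterol genes gave mean differences as small as -0.02, against -1.34 for the probe used. That of Sc5d gave a larger one, -1.85 against -0.73. The M2 calls became 7 and 9 after median centring, and 5 and 4 with the slide as a block.

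**Figure D4:**
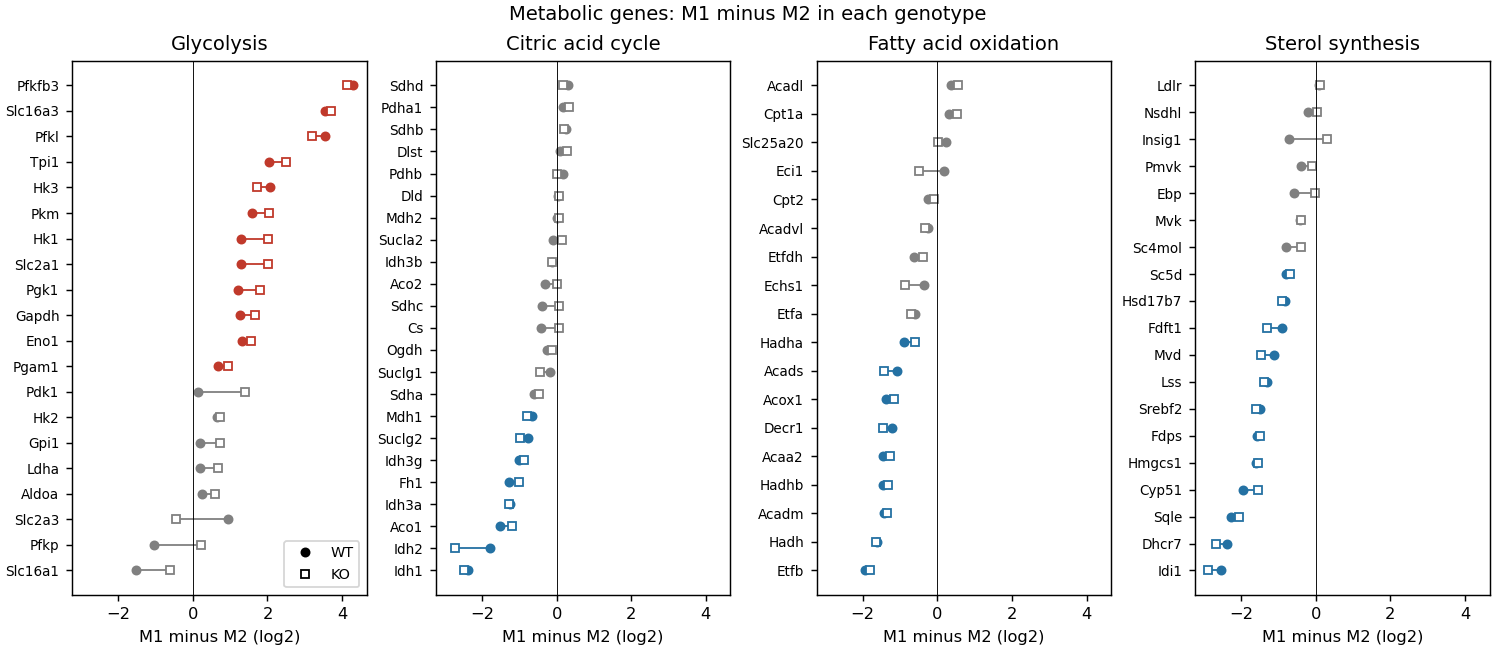
Each row is 1 gene, with its M1 minus M2 difference (log2) in WT as a filled circle and in KO as an open square; red and blue rows passed limma as higher in M1 or M2 and grey rows did not; some list members are not drawn. Glycolysis genes reach 4.30 to the right, and the coloured rows of the other 3 lists lie to the left of 0, down to -2.88.

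Among 24 lipid genes under the nuclear receptors LXR and PPAR 10 were higher in M2 and 3 in M1, the latter near the 12.7% of all genes. Pparg itself read 5.81 and 5.30 in M2, 4.47 and 4.30 in M0 and 1.62 and 1.36 in M1 (-4.06 ± 0.17). Angptl4 (-4.76 and -4.91), the lipoprotein lipase gene Lpl (-3.34 and -1.80) and the fatty acid binding protein gene Fabp4 (-2.36 and -2.56) followed. Acsl1, which activates fatty acids and is induced by LPS, was higher in M1 (4.44 and 4.01). Prostaglandin genes switched within the pathway. Ptgs2 (8.22 and 8.93) and the prostaglandin E synthase gene Ptges (5.80 and 5.21) were higher in M1. Ptgs1 (-8.79 and -9.34), the leukotriene C4 synthase gene Ltc4s (-3.88 and -2.58) and Hpgd, which degrades prostaglandins (at least 7.84-fold), were higher in M2.

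Of 12 iron genes 5 were higher in M1 and 3 in M2, against 12.7% and 14.0% of all genes. The uptake genes Tfrc and Steap3 (-2.55 and -2.26) were higher in M2, and the ceruloplasmin gene Cp (4.65 and 5.90) and the siderophore-binding protein gene Lcn2 (7.32 in WT) in M1. Lcn2 was not well above background on the KO M2 array. The exporter gene Slc40a1 was higher in M2 (-0.72 and -1.07). Of 18 antioxidant genes 10 were higher in M1, led by the mitochondrial superoxide dismutase gene Sod2 (3.42 and 3.29), and 2 in M2, Nqo1 (-1.15 and -1.35) and Gpx1 (-0.65 and -0.70). The M2 share of the antioxidant genes is near the 14.0% of all genes, and after median centring 0 of these genes were higher in M2. Of 17 complement genes 8 were higher in M1, among them Cfb (7.08 and 7.97) and C3 (2.81 and 4.41), while the C1q chain genes, between -0.44 and 0.52, did not pass.

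Of 14 cell fusion genes 8 were higher in M2 and 1 in M1. The 8 included Ocstamp (-7.69 and -5.34) and Dcstamp (-5.79 and -2.62), membrane proteins needed for giant cell formation, and the proton pump subunit gene Atp6v0d2 (-4.60 and -3.76). The highest mean of the list was 1.13, and further probes of that gene gave 0.32, 0.47 and -0.15. Of 13 metalloproteinase genes and inhibitors 4 were higher in each state, against 12.7% (M1) and 14.0% (M2) of all genes. Timp1 read 6.16 and 5.30 in M1 and 2.58 and 1.91 in M2, and Timp2 read 3.24 and 3.12 in M1 and 7.62 and 7.13 in M2. The growth factor genes Pdgfa (-3.52 and -3.34) and Hgf (-1.25 and -1.66) were higher in M2, and Thbs1 (4.37 and 3.68) in M1. The receptor gene Flt1 was higher in M2 (-7.24 and -5.75). Its further probes gave means of -6.69, -6.51 and -0.18.

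Cell cycle genes were lower in M1 for 9 of 30 and higher for 2, against 14.0% and 12.7% of all genes. Their medians were -1.38 in WT and -0.30 in KO. Ccna2, the cyclin A2 gene, read 0.14 and -1.94 in M2 and -5.15 and -4.81 in M1, and Rrm2 (-3.83 and -2.15), Tk1 (-3.40 and -2.16) and Top2a (-2.87 and -1.51) had larger sizes in WT. The difference between the genotypes was not tested, since it has no residual of its own. Cyclin genes Ccnd2 (3.86 and 4.69) and Ccne1 (2.40 and 4.36) were higher in M1. Of 14 tested FoxO factors and targets 2 were higher in M2, Sesn1 (-3.23 and -2.72) and Bcl2l11 (-2.64 and -1.80), which is near the 14.0% of all genes (further Bcl2l11 probes gave means of -1.39 and -0.63), and 0 passed as higher in M1.

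The slide as a block is the same fit as leaving out WT M2, the only WT array on slide 2. It leaves 1 residual degree of freedom, so a part of the slide cannot be told apart from the loss of an array. In this fit several list counts fell by more than 1.5 times. On the M2 side they went from 10 to 5 for lectin and scavenger receptors and for LXR and PPAR lipid genes, and from 9 to 4 for cell cycle genes. On the M1 side they went from 9 to 4 for the other polarization factors, from 11 to 7 for Toll-like receptors and from 8 to 4 for complement genes.

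Genes on which the genotypes disagreed were mostly lower in M1 in the WT pair, the pair that spans the slides. Of the 176 genes at least 2-fold apart in opposite directions 163 were higher in M2 in WT and higher in M1 in KO, and 13 the reverse. Their median signal was 13.2 units, against 308.0 for all genes tested, and with normexp correction 10 genes were at least 2-fold apart in opposite directions. Of the 163, 82 were lower on both slide 1 arrays (WT M0 and WT M1) than on all 4 slide 2 arrays, which held for 18.5% of all genes tested. The opposite order held for 2.83% of all genes. The 163 were picked for a WT M1 level below WT M2, which is part of that order. The 18.5% is therefore not a like comparison. The part of the slide in these differences was not tested.

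Where a gene was detected on each M1 and M2 array, the WT difference lay furthest below the KO difference for Gm9806 (-5.31 and 0.48), Gm9292 (-5.06 and 0.71), Serpina1d (-1.26 and 3.99), Foxq1 (-4.30 and 0.42), the mitochondrial carrier gene Slc25a29 (-3.97 and 0.61), Trim54 (-3.78 and 0.80), the lactate transporter gene Slc16a8 (-4.33 and 0.15) and a probe without a gene symbol. The forkhead gene Foxq1 read 0.27 and 0.22 on the slide 1 arrays, 4.52 on WT M2 and 1.84 to 2.46 on the KO arrays. Gm9292, Slc25a29, Trim54 and Slc16a8 had the same order, with both slide 1 arrays lowest and WT M2 highest. A further probe of Gm9806 gave a mean difference of 0.47, against -2.42 for the probe used. Serpina1d, a liver transcript, was high on WT M0 (3.64) and KO M1 (-0.65) and at most -4.29 elsewhere.

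In the other direction were 1700007K13Rik (1.37 and -2.91), the ribosomal protein gene Rpl30 (0.94 and -2.10), Ddit4l (-0.68 and -3.38), Arg2 and 4 transcripts without a current symbol. Rpl30 was lowest on KO M1 at 3.66, and the other 5 arrays lay between 4.52 and 5.76. Among the list members the immediate early gene Egr1 read -1.85 on WT M1, 2.30 on KO M1 and 0.27 to 0.62 on the others. Hbegf, an epidermal growth factor family gene, had the same order, with -2.36 on WT M1, 1.30 on KO M1 and -1.73 to -0.31 elsewhere. These are values of single arrays and have no replicate check.

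**Figure D5:**
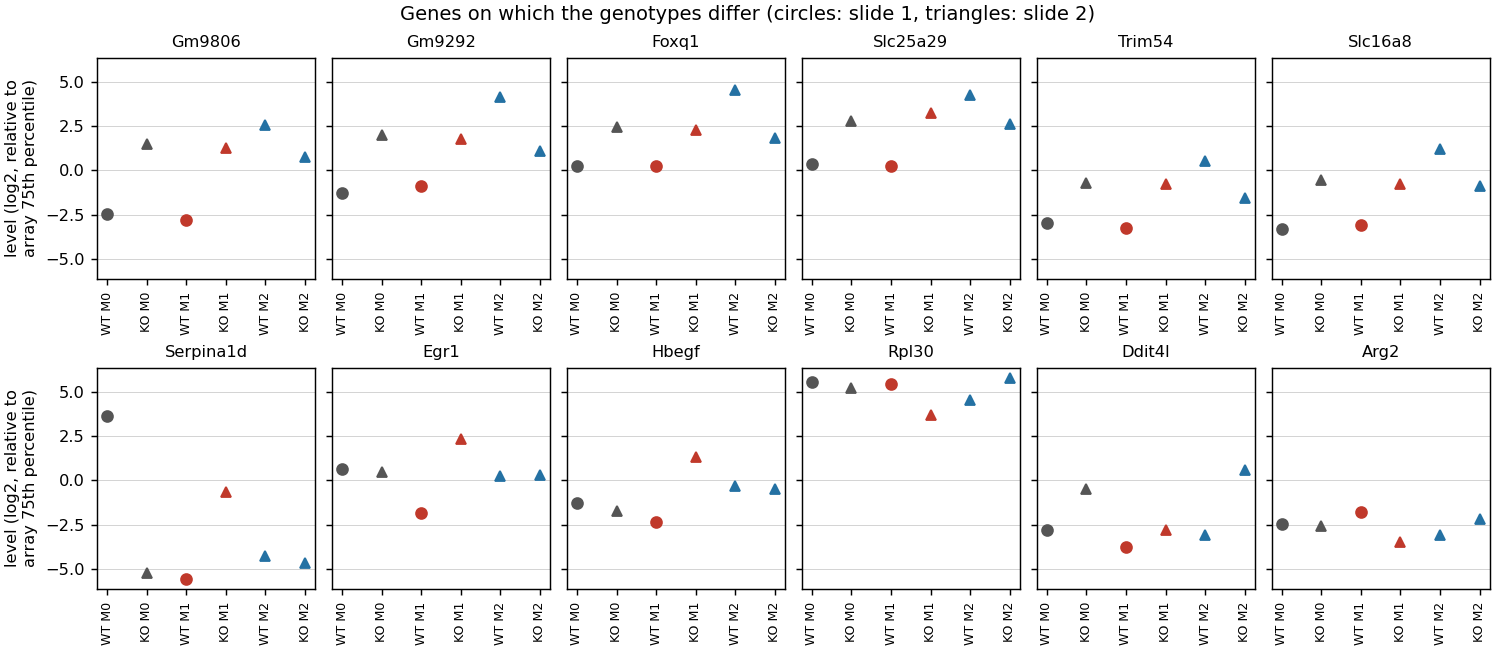
Each panel is 1 gene with its log2 level relative to the array 75th percentile on each of the 6 arrays; circles are slide 1, triangles slide 2, and grey, red and blue are M0, M1 and M2. In the upper row both circles lie below all triangles, and in the lower row single arrays stand apart, such as WT M0 at 3.64 for Serpina1d and KO M1 at 2.30 for Egr1.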

How the data were processed

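RNA of 6 macrophage samples was hybridised to 1-colour arrays. The authors deposited scanner output with spot intensity values, made with Feature Extraction version 10.7.3.1 according to the headers, background-subtracted and not scaled between arrays, and a table of log2 values for which no source used here gives the normalization. Across probes each column had a Pearson r of 0.99886 or more with its own array's log2 signal, so it could serve as an alternative.

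Control spots and flagged spots (79 to 164 of 43379 per array) were left out, replicate spots were averaged, and 37 of 41174 probes lacking a value were dropped. Levels were log2 processed signals less the 75th percentile of the array, with the brightest probe per gene name, well above background on at least 2 of the 4 M1 and M2 arrays. Names were updated through a RefSeq table of GRCm38.p6, by accession for 27672 probes, and 7418 probes stayed without a symbol.

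limma 3.58.1 in R 4.3.3 fitted state and genotype on all 6 arrays (2 residual degrees of freedom) with Benjamini-Hochberg adjustment, and the fit was tested on simulated data. Its residual mixes array noise with differences between the genotypes, and an SE is that of this fit. The alternatives were 4 scalings, 2 filters, all probes averaged, the slide as a block, the 4 arrays alone, no genotype term, an intensity trend, a 4-fold threshold, each pair alone and each array left out. With a genotype term, the slide as a block is the same fit as leaving out WT M2, and the 4 arrays alone the same as leaving out either M0 array. The bound "at least N-fold" divides the bright state's mean by a detection limit, taken on each dim array as the lowest signal of any probe well above background, or as the probe's own signal where that is higher.

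The named genes were Foxo1, the 15 highest and lowest called genes well above background on all 4 arrays, up to 12 bounds each way, the 8 genes each way with the largest difference between the genotypes, and members of 49 gene lists. The comparison, rules and lists were chosen with earlier results of these data known. Some list members are counted but not reported by name here.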

Additional observations from a re-analysis of the deposited data

Results flagged for a closer look

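These results had opposite directions in WT and in KO. Each compares 1 array with 1 array, and the difference between the genotypes was not tested. Where a gene was detected on each M1 and M2 array, M1 minus M2 in WT and then in KO was -5.31 and 0.48 for Gm9806, -5.06 and 0.71 for Gm9292, -1.26 and 3.99 for Serpina1d, -4.30 and 0.42 for Foxq1, -3.97 and 0.61 for Slc25a29, -3.78 and 0.80 for Trim54, -4.33 and 0.15 for Slc16a8, and -4.37 and 0.47 for a probe without a gene symbol. In the other direction it was 1.37 and -2.91 for 1700007K13Rik, 0.94 and -2.10 for Rpl30 and 1.26 and -1.27 for Arg2. Transcripts without a current symbol gave 2.40 and -1.42, 1.92 and -1.49, 2.10 and -0.82, and 1.99 and -0.66.

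Among members of the gene lists that were at least 2-fold apart in opposite directions were Egr1 (-2.12 and 2.03), Hbegf (-2.04 and 1.79), the endothelin gene Edn1 (-1.06 and 2.44), the cyclin gene Ccne2 (-2.02 and 2.20), the fractalkine receptor gene Cx3cr1 (-1.24 and 1.42) and the liver gene Ahsg (-2.49 and 3.81). Edn1 was highest on KO M1 at -0.83, and its other levels lay between -4.28 and -1.60. Cx3cr1 was not well above background on KO M2, nor Ahsg on WT M1. The levels of Ccne2 and Cx3cr1 were at most -2.48 on the 6 arrays.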

How the results depend on the processing

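Genes higher in M1 and in M2 numbered 2353 and 2598 in limma. Median centring gave 1615 on the M2 side, the slide as a block 1289 and 1202, and the 4 arrays alone 747 and 709. Leaving out 1 array gave from 0 to 1815 on the M1 side and from 0 to 3280 on the M2 side. The 0 came without KO M1; without WT M1 they were 290 and 240, without WT M2 1289 and 1202, and without either M0 array 747 and 709, each with 1 residual degree of freedom. The counts stayed within 1.5 times of these with the other scalings, filters, probe averaging and intensity trend, and without a genotype term. Genes at least 2-fold apart in both genotypes (1623 and 1845) became 961 and 984 with normexp correction and 659 and 673 at 4-fold. The KO pair alone gave 2465 on the M1 side and the WT pair alone 4649 on the M2 side. Opposite directions (176) became 10 with normexp correction, 61 with a well-above-background signal on all 4 arrays and 418 with no filter. The median of 5 dendritic cell markers, 1.49, was -0.02 with the stricter detection filter and 0.0 with all probes averaged; it is the value of the Zbtb46 probe used, whose other probe gave -3.84. Of 410 named called genes 0 changed sign under any of these. Much of this was fixed in advance, since a called gene has the same sign in both genotypes. The 2 filters, the 4 arrays alone, the intensity trend, no genotype term and leaving out an M0 array also keep each gene's difference unchanged. Its sign could not change in those settings. The causes of the changed counts were not tested. The slide as a block and the fit without WT M2 are the same fit, so they are not separate checks. Likewise the 4 arrays alone and the fits without either M0 array are the same fit, since a lone M0 array is fitted exactly. No paired analysis by replicate number was possible because each group has 1 array; genotype pairs the arrays in every fit except the one without that term. Signal over background limits the 2323 genes tested that were not well above background on all 4 arrays.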

Other observations

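The probe used for Sparcl1, chosen here after its values were seen, had a signal of 591679 units on WT M1 and of 1.93 to 26.1 units on the other 5 arrays. It gave the largest difference between the genotypes of all genes tested, with 15.67 in WT and -0.84 in KO. Arc, an immediate early gene like Egr1 and also chosen after its values were seen, was highest on KO M1 at 1.30, and its other levels lay between -3.31 and -2.47.

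Of 13 purinergic receptor and ectonucleotidase genes 4 were higher in M1 and 3 in M2 in limma, against 12.7% and 14.0% of all genes. P2ry13 (3.40 and 2.59), P2ry14 (1.79 and 1.99) and P2ry12 (1.34 and 1.86), receptors for nucleotides and UDP-glucose, were higher in M1. P2ry1 (-6.93 and -6.39) was the largest on the M2 side, with P2rx7 (-0.97 and -0.93) and Enpp1 (-1.22 and -1.63; a further probe gave a mean of -4.05). Among 7 Fc receptor genes the high-affinity Fcgr1 (2.25 and 3.71) and Fcgr4 (2.71 and 3.28) were higher in M1, and Fcrls (-5.18 and -4.69) and Fcgrt (-1.77 and -2.20) in M2. Among 16 amino acid transporters 7 were higher in M1, led by Slc7a8 (2.60 and 2.25), and the glutamine transporter Slc1a5 (-3.35 and -2.81) was higher in M2. Of 14 inflammasome and cell death genes 11 were higher in M1, led by Mlkl (3.17 and 3.71) and Casp4 (2.97 and 3.14), and the adaptor gene Pycard was higher in M2 (-1.24 and -1.85).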
